A study of Mus musculus with 6 samples.

Results

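Trim71, the Lin28 genes and the genes around the microRNA let-7 were followed in the brain of 3 adult male Kdm5c-deficient mice and 3 adult male wild-type littermates, all on a mixed C57BL/6 and 129 (50:50) background. Kdm5c is an X-linked gene for a demethylase of histone H3 lysine 4. The mice came from a heterozygous deficient C57BL/6 mother and a wild-type 129 father. The labels describe neither the deficient allele nor the brain region taken, and they do not say whether other alleles were carried. RNA was sequenced from TruSeq libraries, and the deposited table holds raw read counts per gene symbol. The 9 genes, of 43346 rows, were found by symbol: Trim71, Lin28a, Lin28b, Hmga2, Igf2bp1, Igf2bp2, Igf2bp3, Dicer1 and Ago2. Trim71 was chosen by the measured rise of its counts in the deficient mice, so its difference is described without a test. The other 8 were picked for their place in the same pathway, with earlier results of these data known.

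In animals from worms to mammals, let-7 microRNAs accumulate as cells leave the embryonic state and hold down mRNAs that carry sites for them. The RNA-binding proteins Lin28a and Lin28b block the maturation of let-7 precursors, and the Lin28 mRNAs are themselves let-7 targets, so each side restrains the other. Trim71, the mammalian relative of the worm gene lin-41, encodes an RNA-binding protein of the ubiquitin ligase class and is a well-known let-7 target, needed for closure of the neural tube in the mouse embryo. Hmga2, a chromatin architecture protein of fetal neural stem cells, and the mRNA-binding proteins Igf2bp1, Igf2bp2 and Igf2bp3 are further let-7 targets of the fetal program. Dicer1 cuts microRNA precursors, and Ago2 is the effector protein that holds mature microRNAs.

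The let-7 family is joined by its seed, bases 2 to 8 of the mature microRNA, in capitals in the RefSeq sequences (GRCm38.p6) shown here. The seed is common to 9 distinct mature mouse microRNAs from 11 loci in that table. These 4 show that members differ outside the seed, let-7d already at its 5′ end:
let-7a: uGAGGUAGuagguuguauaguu
let-7d: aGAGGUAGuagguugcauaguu
let-7i: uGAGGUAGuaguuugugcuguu
miR-98: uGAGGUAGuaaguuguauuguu

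Seed matches were read from the 3′ UTR of each gene's transcript with the longest coding sequence (GENCODE M21, GRCm38), on the sense strand. An 8mer is CTACCTCA, which pairs with the whole seed and ends in A. The 7mers are CTACCTC or TACCTCA where no 8mer covers them. Trim71 held 6 matches in 5515 nt, 4 of them 8mers, while among 639 genes with a 3′ UTR within 20% of that length 10.8% held any 8mer and 0.156% held at least as many matches. Hmga2 held 7 matches (1 an 8mer), Lin28b 5 (1), Igf2bp1 5 (3), Ago2 4 (1), Lin28a 2 (both 8mers), Igf2bp2 2 (1) and Igf2bp3 1 (an 8mer). The share of genes of similar 3′ UTR length with at least as many matches was 0.0532% for Hmga2, 0.378% for Lin28b and 0.442% for Igf2bp1. It was 2.75% for Igf2bp2, 4.28% for Lin28a, 4.76% for Ago2 and 22.9% for Igf2bp3. The 3′ UTR of Dicer1 held no match in 3854 nt, but its coding sequence held 5, of which 3 were 8mers. Over 21627 genes with an annotated 3′ UTR, whose median length is 742 nt, 12.6% held any match and 2.55% an 8mer. The lines below give the Trim71 8mers and an 8mer of 5 other members, 5′ to 3′ with 8 bases on each side and the match in capitals. The core is the same in every line because it was searched for, and the bases beside it differ:
Trim71, chr9:114512472-114512479, minus strand: cctaagtcCTACCTCAgcttaaat
Trim71, chr9:114512376-114512383, minus strand: atttctatCTACCTCAactctttg
Trim71, chr9:114509047-114509054, minus strand: tggattttCTACCTCAattttggc
Trim71, chr9:114509021-114509028, minus strand: aaagttgtCTACCTCAcgtcggca
Lin28b, chr10:45381022-45381029, minus strand: cgggaagtCTACCTCAtgcaagca
Hmga2, chr10:120364224-120364231, minus strand: ttcaatttCTACCTCAgcatcagt
Igf2bp1, chr11:95961778-95961785, minus strand: gaagtaaaCTACCTCAaggtgtga
Igf2bp2, chr16:22059473-22059480, minus strand: aataaaagCTACCTCAggtgtttt
Igf2bp3, chr6:49086787-49086794, minus strand: ttactcaaCTACCTCAggtattca

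**Figure D1:**
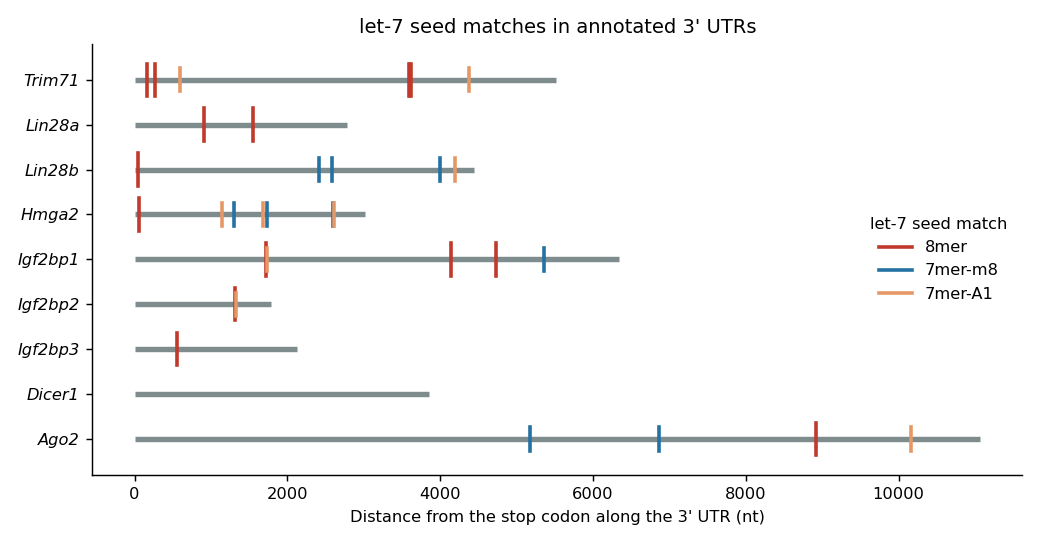
Position of let-7 seed matches (coloured ticks) along the annotated 3′ UTR (grey bar) of each of the 9 genes, in nt from the stop codon. Trim71 has 4 8mers in 2 pairs, and Dicer1 has no match in its 3′ UTR.

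Library totals ran from 20221675 to 24555412 counts. Kdm5c itself averaged 72.8 ± 6.75 CPM (counts scaled to a common library size) in deficient mice and 81.5 ± 3.43 CPM in wild-type mice (SD, n = 3 each), a log2 fold change of -0.16 ± 0.07 (SE) and an edgeR adjusted p of 0.196. Here and below, p-values come from the quasi-likelihood test in edgeR and are adjusted by Benjamini-Hochberg over the 15127 genes tested, with 0.05 as the threshold. As the allele is not described, this level does not check the labels. The 10 neuron markers listed were all present, summing to 8236, 9422 and 9141 CPM in deficient mice and 8127, 8072 and 8576 CPM in wild-type mice. Deficient mouse 2 stood apart in cerebellar markers, and results are also given without it below. No pair of libraries of the same genotype agreed within sampling noise.

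Trim71 lies on chromosome 9 at 114507133 to 114564369, minus strand (GRCm38). It had 51, 70 and 61 reads in deficient mice and 13, 12 and 20 reads in wild-type mice. Every deficient mouse was well above every wild-type mouse. The level was 2.71 ± 0.282 CPM in deficient mice and 0.663 ± 0.186 CPM in wild-type mice (SD, n = 3 each). The fitted log2 fold change of deficient over wild type was 2.03 ± 0.23 (SE), 4.08-fold, and 18 of the 15127 genes tested had a higher one. The value stayed between 1.88 and 2.28 when any single mouse was left out, and was 1.97 without deficient mouse 2. The transcript shares 135 nt, 1.45% of its exonic length, with C130032M10Rik on the opposite strand. That gene was listed with 0 reads in every library.

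**Figure D2:**
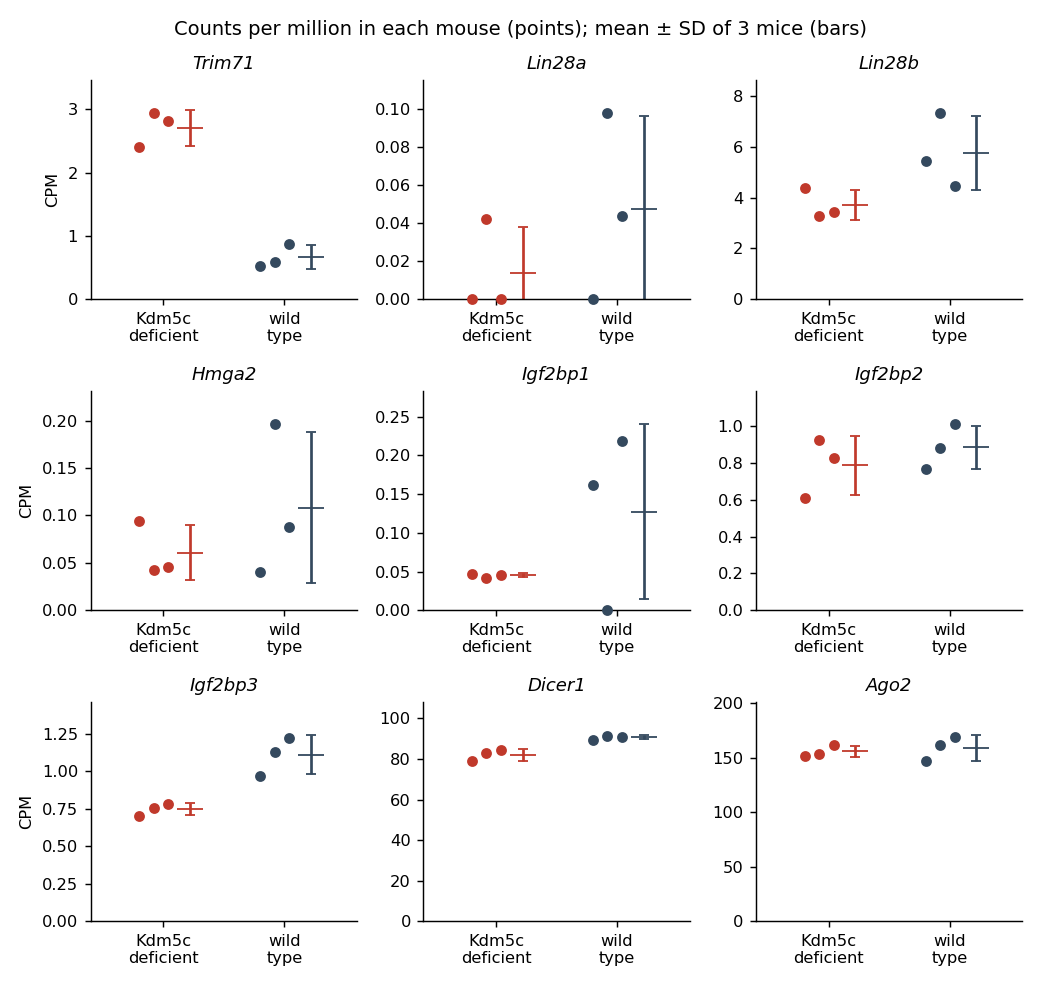
CPM of each of the 9 genes in every mouse (points), with the mean ± SD of 3 mice (bars), for Kdm5c-deficient and wild-type brain; each panel has its own axis from 0. In Trim71 the deficient mice sit at 2.40 to 2.94 CPM and the wild-type mice at 0.526 to 0.875 CPM, and in no other gene are the deficient mice all above the wild-type mice.

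No other axis gene passed the test in either direction. Of the 9 genes, 6 had enough reads to be tested, and 3, Lin28a, Hmga2 and Igf2bp1, had too few in either genotype. Trim71 was the only member past the threshold (1 of 6), where 4.93% of all tested genes passed, 2.45% higher and 2.48% lower. Nothing is read from that count, since Trim71 was chosen for its rise. The other 5 tested members had log2 fold changes of -0.63 to -0.03 that did not pass. Their 95% intervals, taken from the same fit, ended at 1.33-fold or below.

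Lin28b came nearest to the threshold among the other members, with lower values in deficient brain. Lin28b lies on chromosome 10 at 45376620 to 45486395, minus strand (GRCm38), and had 93, 78 and 75 reads in deficient brains, against 135, 150 and 102 reads in wild-type brains. In CPM all deficient values were below all wild-type values. Of all tested genes 30.8% had no overlap between genotypes in CPM, in either direction. The level was 3.70 ± 0.589 CPM in deficient mice and 5.76 ± 1.46 CPM in wild-type mice (SD, n = 3 each). The log2 fold change was -0.63 ± 0.20 (SE; 95% interval -1.09 to -0.18), and the edgeR adjusted p of 0.0993 was not past the threshold. Permuting the mice exactly, two-sided, gave p = 0.1 for its CPM, the smallest that 3 against 3 mice allow. Without deficient mouse 1 the change passed (-0.77, edgeR adjusted p = 0.0483), and without wild-type mouse 2 it was -0.43 (edgeR adjusted p = 0.301), so single mice decide the call. For Lin28b the authors' deposited table gives a log2 value of 0.383, there wild type over deficient, with an unadjusted p of 0.00636. For Trim71 it gives -0.813, also wild type over deficient. Both have the same direction as the values fitted here but are smaller in size, and the reason was not tested. Lin28a, the form best known from embryonic stem cells, had 0, 1 and 0 reads in deficient brains, against 0, 2 and 1 reads in wild-type brains. Those sums, 1 and 3 reads in deficient and wild-type brain, have exact Poisson 95% intervals of 0.0253 to 5.57 and 0.619 to 8.77 reads, which cover counting error only. A difference in Lin28a was not detectable at this depth.

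Of the fetal mRNA-binding proteins, none passed. Igf2bp3 had 15, 18 and 17 reads in deficient brains, against 24, 23 and 28 reads in wild-type brains, without overlap. Its level was 0.748 ± 0.0394 CPM in deficient mice and 1.11 ± 0.128 CPM in wild-type mice (SD, n = 3 each), a log2 fold change of -0.56 ± 0.22 (SE) at an edgeR adjusted p of 0.16. The exons of Igf2bp3 share 1529 nt (18.7%) with Malsu1 on the opposite strand, and since the use of strand in counting is not given, reads of the pair cannot be told apart there. Malsu1 itself had a log2 fold change of -0.08 ± 0.10 (SE; edgeR adjusted p = 0.649). Igf2bp2 had 13, 22 and 18 reads in deficient brains, against 19, 18 and 23 reads in wild-type brains, and the genotypes overlapped. Its log2 fold change was -0.16 ± 0.25 (SE; 95% interval -0.73 to 0.41, edgeR adjusted p = 0.757), so a change of up to 1.33-fold upward or down to 0.603-fold lies within its error. Igf2bp1 had 1 read in each deficient mouse and 4, 0 and 5 reads in the wild-type mice. The ratio of deficient to wild type was 0.339, with an exact counting interval of 0.0591 to 1.36. Hmga2 had 2, 1 and 1 reads in deficient brains, against 1, 4 and 2 reads in wild-type brains. Its ratio of deficient to wild type was 0.582, with a counting interval of 0.125 to 2.29. At 3 to 9 reads per genotype these intervals, which cover counting error only, admit changes in either direction.

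Dicer1 and Ago2, of the common microRNA machinery, were abundant in both genotypes and did not pass. Dicer1 had 78.9, 82.8 and 84.6 CPM in deficient mice and 89.5, 91.4 and 90.8 CPM in wild-type mice. The groups did not overlap, and the difference was small, at a log2 fold change of -0.14 ± 0.05 (SE; edgeR adjusted p = 0.103). Ago2, which Trim71 protein has been reported to bind, had 152, 154 and 162 CPM in deficient mice and 147, 162 and 169 CPM in wild-type mice, which overlapped. Its log2 fold change was -0.03 ± 0.06 (SE), with a 95% interval of 0.891-fold to 1.08-fold and an edgeR adjusted p of 0.822. The sign of this value turned to 0.02 without wild-type mouse 3.

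**Figure D3:**
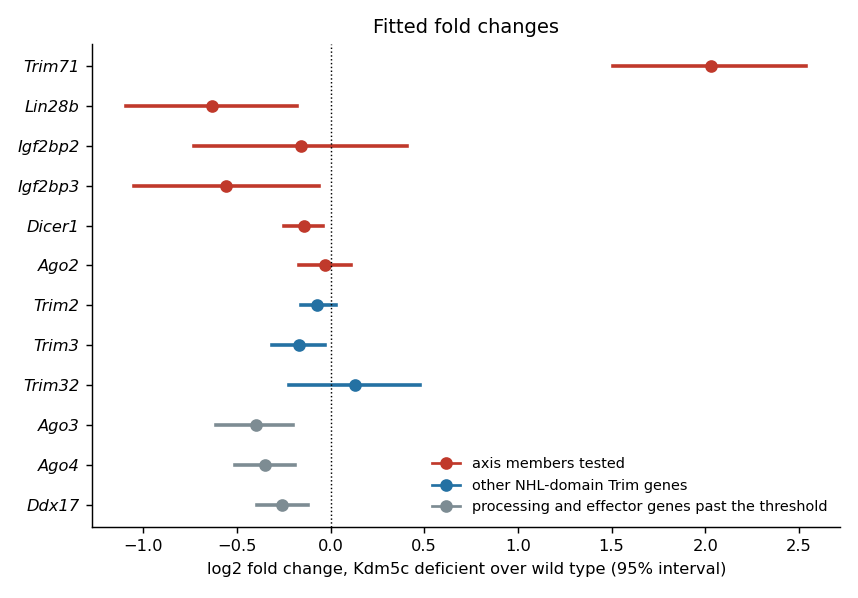
Fitted log2 fold change of Kdm5c-deficient over wild-type brain (points) with its 95% interval (lines) for the 6 tested axis genes, the other NHL-domain Trim genes and the 3 processing and effector genes past the threshold. Trim71 lies at 2.03, and every other gene shown lies between -0.63 and 0.13.

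Levels can be compared between genes only per length, here as CPM per kb of the longest coding transcript, averaged over all 6 mice. Ago2 (11.4) and Dicer1 (8.76) were far above the rest, followed by Lin28b (0.875). Igf2bp2 (0.215), Igf2bp3 (0.213) and Trim71 (0.181) formed a group whose order depended on genotype. In deficient mice Trim71 was at 0.290 ± 0.0302, Igf2bp2 at 0.202 ± 0.0411 and Igf2bp3 at 0.172 ± 0.00906 CPM per kb (SD, n = 3). In wild-type mice Trim71 was at 0.0710 ± 0.0199, Igf2bp2 at 0.227 ± 0.0304 and Igf2bp3 at 0.255 ± 0.0293 CPM per kb (SD, n = 3). Igf2bp2 and Igf2bp3 did not differ beyond the spread between mice in either genotype. Within each wild-type mouse, though, Igf2bp3 (0.224, 0.259 and 0.282 CPM per kb) was above Igf2bp2 (0.197, 0.226 and 0.258). In deficient mice their order varied. Hmga2 (0.0221), Igf2bp1 (0.0103) and Lin28a (0.00873) were lowest, and their order rests on a handful of reads. Even at its level in deficient brain, Trim71 had less RNA per length than Lin28b in the same mice, at 0.685 ± 0.109 CPM per kb (SD, n = 3). In bulk tissue, fewer cells that make an RNA and less RNA per cell cannot be told apart.

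Of the other Trim genes with an NHL domain, relatives of Trim71, none of 3 passed with all mice. Trim3 was lower past the threshold without deficient mouse 1 (edgeR adjusted p = 0.0201). Trim2 and Trim3, abundant in neurons, had log2 fold changes of -0.07 ± 0.04 and -0.17 ± 0.06 (SE), and Trim32, known from muscle disease and neural progenitors, had 0.13 ± 0.15 (SE), with edgeR adjusted p-values of 0.365, 0.139 and 0.649. Of the 7 mRNAs listed as repressed by Trim71 in other cells, Ago2 included, 6 were tested. Egr1, an activity-induced transcription factor, was higher in deficient brain, at 171 ± 19.2 CPM against 127 ± 14.2 CPM in wild type (SD, n = 3 each; log2 fold change 0.43 ± 0.10 SE; edgeR adjusted p = 0.0447), a call kept in 1 of 6 fits with a mouse removed. Cdkn1a, the cell cycle inhibitor p21 and the best-known of these targets, was chosen after its values were seen. It had 13.5, 9.99 and 17.8 CPM in deficient mice and 9.19, 9.20 and 9.36 CPM in wild-type mice, a log2 fold change of 0.57 ± 0.18 (SE; edgeR adjusted p = 0.103). Deficient mouse 2 was close to wild type and deficient mouse 3 highest. The log2 fold change of Cdkn1a passed without deficient mouse 2 (0.76, edgeR adjusted p = 0.00952) and with DESeq2 on all mice (adjusted p = 0.0295), and was at 0.34 without deficient mouse 3 (edgeR adjusted p = 0.218). Mbnl1, also listed, went the other way, at 116, 109 and 114 CPM in deficient mice and 121, 131 and 128 CPM in wild-type mice. Its log2 fold change was -0.16 ± 0.05 (SE; edgeR adjusted p = 0.0947). Of the 6 tested, 3 had positive log2 fold changes. No member of this list was lower past the threshold, and 1 was at a threshold of 0.1. Over all tested genes 2.45% were higher and 2.48% lower, and nothing is read from counts this small.

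The microRNAs themselves were out of reach of these mRNA libraries. Of 20 listed let-7 and miR-125 hairpin and host genes 16 were in the table, and the 13 hairpins among them had 0 reads in every library, so mature let-7 was not measured. The 3 host transcripts were Huwe1, a ubiquitin ligase gene whose introns hold let-7f and miR-98, Wdr82, a subunit of the histone H3 lysine 4 methyltransferase complex that hosts let-7g, and the non-coding Mir99ahg, which hosts let-7c. Their log2 fold changes were -0.10 ± 0.05, 0.07 ± 0.06 and -0.31 ± 0.20 (SE), with edgeR adjusted p-values of 0.226, 0.468 and 0.367. Among 6 tested genes listed for tailing or decay of let-7 precursors, Tut1 and Eri1 included, none passed. Zcchc11, the uridyl transferase that Lin28a recruits, came nearest, at 40.8, 36.9 and 43.5 CPM in deficient mice and 46.9, 54.8 and 49.5 CPM in wild-type mice, a log2 fold change of -0.32 ± 0.08 (SE; edgeR adjusted p = 0.055). The log2 fold change of Zcchc11 passed without deficient mouse 1 (edgeR adjusted p = 0.0455), with no filter (edgeR adjusted p = 0.0309) and with DESeq2 (adjusted p = 0.015).

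Of 28 microRNA processing and effector genes, Dicer1 and Ago2 included, 3 fell and none rose. Over all tested genes 2.48% were lower and 2.45% higher. The list's median log2 fold change was -0.09, beside 0.00 over all tested genes. Ago4 and Ago3, relatives of Ago2 that do not cut their targets as it does, had log2 fold changes of -0.35 ± 0.07 and -0.40 ± 0.09 (SE), and the RNA helicase Ddx17 had -0.26 ± 0.06 (SE), with edgeR adjusted p-values of 0.0334, 0.0431 and 0.0468. Ago3 was at 72.0, 59.8 and 71.8 CPM in deficient mice and 85.0, 100 and 84.4 CPM in wild-type mice. The other 25 lay between -0.50 and 0.14, 17 of them negative. These calls were fragile, with 2 left without deficient mouse 2 and 0 without deficient mouse 3 or any single wild-type mouse. Without deficient mouse 1, 8 genes of the list were lower. With all mice, 9 were lower with DESeq2, with no filter and at a threshold of 0.1, and 0 with the replicate number as a block.

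**Figure D4:**
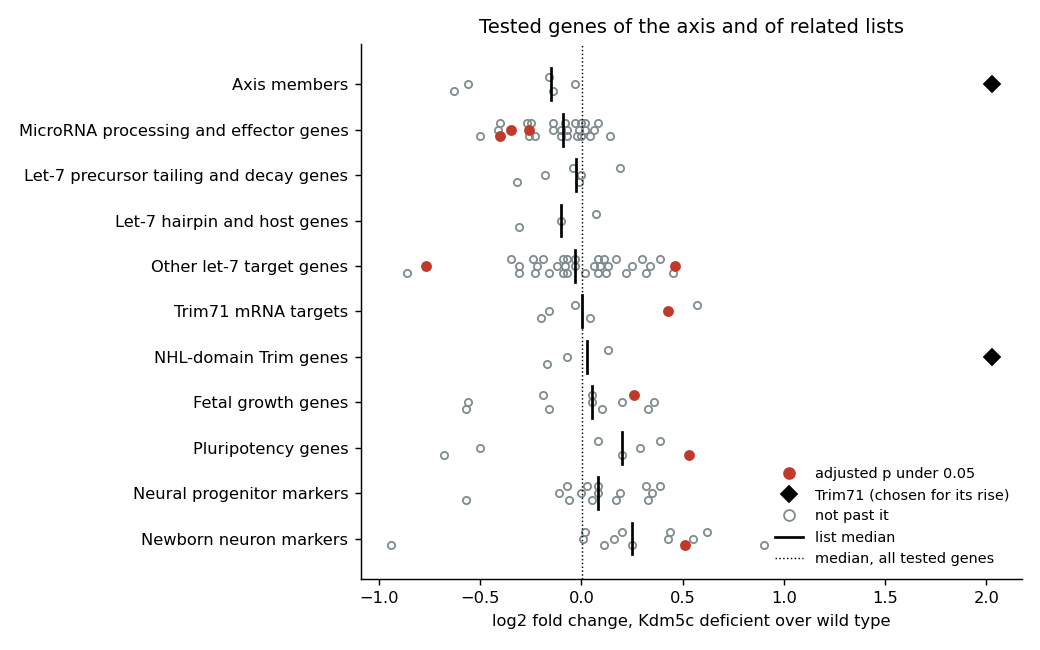
Log2 fold change of Kdm5c-deficient over wild-type brain for each tested gene (points) of the axis and of related lists, with list medians (bars) and the median of all tested genes (dotted line). Trim71 (diamond) stands at 2.03 and the other genes drawn lie between -0.94 and 0.90.

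Other let-7 targets were mixed. Of 37 listed, 35 were tested, 1 rose and 1 fell, and the median log2 fold change was -0.03. Ccnd1, the cyclin that starts the cell cycle, was at 31.8, 37.1 and 33.1 CPM in deficient mice and 24.5, 24.8 and 24.7 CPM in wild-type mice, with a log2 fold change of 0.46 ± 0.07 (SE; edgeR adjusted p = 0.0164). Onecut2, a homeodomain transcription factor, was at 5.22, 5.29 and 5.29 CPM in deficient mice and 7.49, 10.3 and 9.18 CPM in wild-type mice, with -0.77 ± 0.13 (SE; edgeR adjusted p = 0.0228). Both calls were kept in 3 of 6 fits with a mouse removed. A wider set, added after the members' values were known, took every tested gene outside the axis with a let-7 8mer in its 3′ UTR. Of these 428 genes 6 (1.40%) were higher and 12 (2.80%) lower, with a median log2 fold change of -0.03. These counts were 24 and 34 without deficient mouse 1, 6 and 9 without deficient mouse 2, and at most 1 in each direction without deficient mouse 3 or any single wild-type mouse. Of all 13704 tested genes with a 3′ UTR, 2.45% were higher and 2.42% lower, with a median of 0.00. The 8mer genes have longer 3′ UTRs (median 2351 nt, against 973.5 nt for all), and the part of length in these shares was not tested.

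Among other genes of early development single members rose, where 2.45% of all tested genes were higher. Nothing is read from 1 call in lists this short. Of 13 fetal growth genes 11 were tested and Grb10, an imprinted adaptor of insulin signalling, alone rose (log2 fold change 0.26 ± 0.05 SE; edgeR adjusted p = 0.0351). Of 22 pluripotency genes 7 were tested, since most had few or no reads in either genotype, and Klf2, which also responds to neuronal activity and shear stress, rose (0.53 ± 0.12 SE; edgeR adjusted p = 0.0445). Both calls were kept in 2 of 6 fits with a mouse removed. Of 17 neural progenitor markers 15 were tested and none passed, and their summed level was 271.7, 227.0 and 272.5 CPM in deficient mice and 260.0, 253.2 and 264.9 CPM in wild-type mice, which overlapped. Of the progenitor regulators with the smallest p-values, Nr2e1 had a log2 fold change of 0.39 ± 0.12, the Notch target Hes5 0.33 ± 0.13 and Pax6, which cerebellar granule cells also express, -0.57 ± 0.27 (SE). Nr2e1 passed without deficient mouse 1 (edgeR adjusted p = 0.0387). Of 13 newborn neuron markers tested Sox11 was higher (log2 fold change 0.51 ± 0.10 SE; edgeR adjusted p = 0.0273). Positive log2 fold changes were seen in 12 of the 13, with a list median of 0.25, beside 50.3% positive over all tested genes. Neurod1, also listed as a cerebellar marker, had -0.94. The newborn neuron list summed to 134.4, 152.2 and 186.6 CPM in deficient mice and 134.2, 131.5 and 143.0 CPM in wild-type mice. Deficient mouse 3 was highest there. Trim71 was at 2.94 CPM in deficient mouse 2 and 2.81 CPM in deficient mouse 3, and the part of newborn neurons in its level was not tested. The Sox11 call was kept in 2 of 6 fits with a mouse removed, and the list's count of higher genes was 4 without deficient mouse 1 and 0 without deficient mouse 3 or any single wild-type mouse.

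Most germ cell markers tested moved with Trim71. Of 17 listed 10 were tested and 7 were higher in deficient brain, where 2.45% of all tested genes were higher. Zar1, Stk31 and D1Pas1 had 0 to 7 reads per wild-type mouse and met the count filter only through the deficient mice. The count of 7 of 10 is therefore partly set by the filter, and nothing is read from it. The sums of the list were 29.2, 29.8 and 31.2 CPM in deficient mice and 14.9, 14.6 and 13.4 CPM in wild-type mice. That list was drawn up with its earlier results known, so its direction is no independent evidence. The 7 were Tex14, known from bridges between germ cells, Zar1, known from oocytes, the meiosis genes Sycp3 and Hsf2bp, the RNA helicase genes Ddx4 and D1Pas1, and Stk31, a kinase-like gene of the testis. D1Pas1 is a close copy of Ddx3x, so how its reads were assigned is uncertain. The other 3 tested, Dazl, Piwil2 and Sycp1, had log2 fold changes of 0.34, -0.38 and -0.97 and did not pass. The 7 calls stayed 7 without deficient mouse 2, and 5 were made without deficient mouse 3 and 3 without any single wild-type mouse. Without deficient mouse 1, 7 of the list were higher and 1 was lower. Another 3 of the list had 0 reads in every library. The part of germ cell genes in the level of Trim71 was not tested. Cerebellar markers summed to 1858, 421.3 and 1413 CPM in deficient mice and 2011, 2118 and 2272 CPM in wild-type mice, lowest in deficient mouse 2, and none of 15 passed although all 15 had negative fold changes. Without deficient mouse 1, 4 of them were lower past the threshold, and without deficient mouse 2 there were 2. Among them Pvalb, of fast inhibitory neurons, averaged 101 ± 43.4 CPM in deficient mice and 166 ± 5.65 CPM in wild-type mice (SD, n = 3 each). The part of cerebellar tissue in the values of Lin28b, Igf2bp3 and Dicer1 was not tested. Without deficient mouse 2 their log2 fold changes were -0.55, -0.57 and -0.15, and that of Trim71 was 1.97, in a comparison where the other deficient mice still had lower cerebellar sums than every wild-type mouse. Of other cell types, 2 of 10 microglial markers (Siglech and Fcrls) and 1 of 10 astrocyte markers (Gja1) were higher, and the oligodendrocyte marker Ugt8a and 1 of 11 meningeal markers (Lum) were lower, while no neuron, endothelial or choroid plexus marker passed. The microglial and astrocyte counts were 0 without deficient mouse 3 or any single wild-type mouse, and without deficient mouse 1, 3 neuron markers were higher and 2 choroid plexus or ependymal markers lower.

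**Figure D5:**
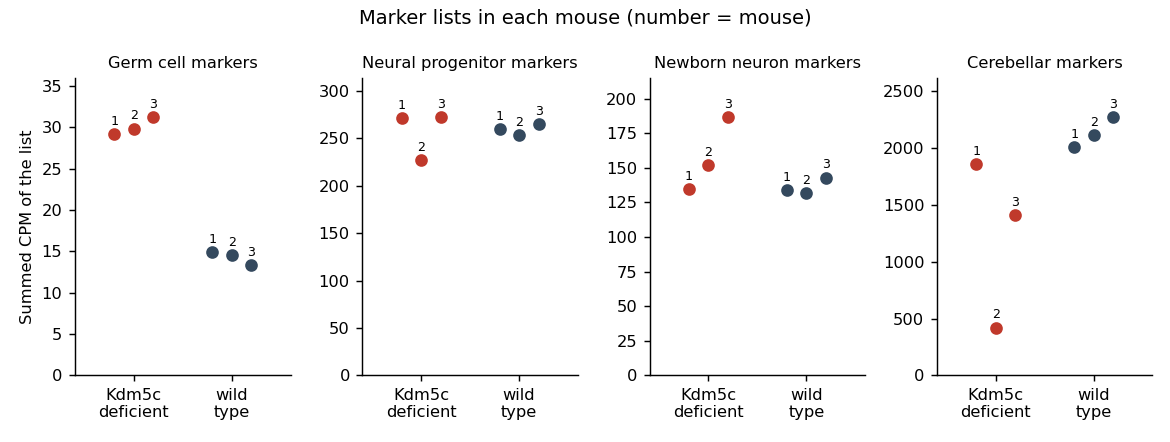
Summed CPM of 4 marker lists in each mouse, numbered 1 to 3 within each genotype. Germ cell markers separate the genotypes, neural progenitor and newborn neuron markers overlap, and cerebellar markers are lowest in deficient mouse 2 at 421.3 CPM.

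The genes whose level followed that of Trim71 most closely over the 6 mice were named by Pearson correlation of log2 CPM, as a description of genes that share the split by genotype. They included Slc16a3, a lactate transporter (r = 0.998), 2700081O15Rik (0.997), the lysosomal protease Ctsl (0.993) and A830008E24Rik (0.992). The sizes of the differences of these 4 ran from a log2 fold change of 0.10 for Ctsl to 3.17 for A830008E24Rik, and 176 of 14891 genes compared had r above 0.95. Slc16a3 and Ctsl did not pass the test between genotypes (edgeR adjusted p = 0.346 and 0.174). Being picked as the highest of so many correlations over 6 mice, they are no evidence of shared regulation.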

How the data were processed

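Brain RNA of 6 mice was analysed from a single table. Per the file headers, the authors deposited 1 raw count per gene symbol and mouse, not normalized, beside a mean signal, a log2 fold change, its standard error and Wald score, and an unadjusted p-value. The deposited log2 values run wild type over deficient and were used only where named. The submitters' processing notes name DESeq2 and GRCm38. Not given in the sources used here: aligner, counter, annotation and strand use.

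The test was that of edgeR 4.0.16 (under R 4.3.3): default expression filter (minimum count 10, total 15; 15127 genes), trimmed mean of M-values scaling, quasi-likelihood test with genotype as the factor, and Benjamini-Hochberg adjustment over all tested genes. It was tested on simulated data. Intervals on fold changes come from that fit; counting intervals are exact, at 95%, and cover counting error only. CPM use scaled library totals. Log2 CPM for correlations had a prior count of 2. No pair of same-genotype libraries agreed within sampling noise. Gene positions, transcripts and UTRs came from GENCODE M21. The members, lists and tests were chosen with earlier results of these data known. The rule for named genes takes all members, Kdm5c, let-7 hosts and NHL-domain Trim genes with reads, the genes of each other list past the threshold (otherwise up to 3 with the smallest p), and the 5 genes of at least 0.5 CPM most correlated with Trim71; of the marker lists only those that bear on the members are described. A few genes within the rule are not reported here. Alternatives were other scalings, filters, DESeq2 1.42.0, limma-voom (limma 3.58.1), the replicate number as a block, a threshold of 0.1 and leaving out each mouse.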

Additional observations from a re-analysis of the deposited data

How the results depend on the processing

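The log2 fold change of Trim71 lay between 1.88 and 2.28 in the 13 alternative fits that kept the gene. The count of higher members was 1 in each of them and 0 with a filter of at least 5 CPM, which removes Trim71. The count of lower members was 0 with all mice, 1 at a threshold of 0.1 and 0 to 1 when a mouse was left out, the 1 being Lin28b in each case. Calls over all genes numbered 746, against 1121 with no filter (21087 genes tested), 1208 with DESeq2, 1792 at a threshold of 0.1 and 44 to 2098 when a mouse was left out (the highest count leaving out deficient mouse 1; the lowest, 44, leaving out wild-type mouse 1, with 53 for wild-type mouse 2, 99 for wild-type mouse 3 and 155 for deficient mouse 3). The cause was not tested, and fits with a mouse left out also hold fewer mice. Ago2 changed sign without wild-type mouse 3 (range -0.08 to 0.02 over mice left out). With the replicate number as a block 58 genes were called (49 higher, 9 lower), with 1 member higher and 0 lower. Deviations of same-numbered mice had correlations of -0.06, -0.06 and 0.14. Deficient mice 1 and 2 correlated best with wild-type mice of another number, and deficient mouse 3 with wild-type mouse 3. Correlations this small do not settle whether the numbers pair the mice. Lin28a, Hmga2 and Igf2bp1 had 1 to 9 reads per genotype, and depth limits what can be said of them.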
